A study of Mus musculus with 4 samples.

Results

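The mitochondrial ribosomal proteins analysed here were the nuclear genes whose NCBI gene ID maps to a protein-coding mouse symbol of Mrpl or Mrps followed by digits, with an optional letter. This rule found 78 of the 27179 genes in the count table, and it used no measured value. RNA-seq was run on MC38, a mouse colon carcinoma cell line, as 1 library for each of 4 conditions. The cells were untreated or received IFN-γ, at 5 ng/mL for 24 h as the study's methods give for most of its experiments, and were kept under normoxic (20% oxygen) or hypoxic (1.5% oxygen) conditions. No further allele or agent is named for these 4 libraries, and no condition had a replicate.

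Mitochondria make a small set of respiratory chain proteins from their own DNA, and they translate them on a ribosome of their own. Its RNAs come from mitochondrial DNA, whereas every protein of it is encoded in the nucleus, made in the cytoplasm and imported. A core of these proteins descends from the bacterial ribosome (such as Mrpl12 of the factor-binding stalk and Mrps12 of the decoding centre), and others have no bacterial counterpart. The members were therefore grouped by textbook role into 30 large-subunit proteins with a bacterial homologue, 21 large-subunit proteins without one, 16 small-subunit proteins with one and 10 without. Mrps18a and Mrps30, despite their names, sit in the large subunit and were counted there. Mrps36 stood alone, because it is now known as a component of the 2-oxoglutarate dehydrogenase complex rather than of the ribosome.

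The 4 libraries held between 34302971 and 34537939 counts on genes, and their TMM normalisation factors were within a narrow range of 0.993 to 1.01. All 10 genes of a fixed hypoxia check list, Car9, Bnip3 and Slc2a1 among them, rose in hypoxia, their median fitted change being 1.27 (log2), and all 8 of an IFN-γ check list rose with IFN-γ with a median of 2.07, so both treatments were visible in the libraries labelled with them. The labelled colon carcinoma line showed little of the epithelial programme. Epithelial markers (Epcam, Cdh1, Krt8, Krt18, Krt19, Krt20, Cdx2 and Vil1) summed to only 2.48 to 3.26 CPM (counts scaled to the normalised total of each library), with Cdh1 and Cdx2 at 0 counts throughout. The mesenchymal markers Vim, Cdh2 and Zeb1 summed to 2210 to 2386 CPM, nearly all of it Vim. Cdh2 was at 20.2 to 23.4 CPM and Zeb1 at 7.03 to 10.2 CPM. Markers of other cells summed to 32.9 to 40.3 CPM, nearly all of it Pdgfra, with the macrophage gene Adgre1 at 0 in every library. In such bulk samples fewer cells of a type and less RNA per cell cannot be told apart.

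The promoters of the members are described first. RefSeq windows (GRCm38.p6) of 250 bases before to 50 bases after the annotated start were at hand for 69 of the 78 members. They were searched on both strands for 6 short motifs: GCATGCGC for NRF1, a regulator of nuclear genes for mitochondrial proteins, CCGGAAG for the ETS family, AAGATGGC for YY1, the E-box CACGTG, the hypoxia response element core ACGTG, which every E-box match contains, and TATAAA. The ETS motif occurred in 37.7% of member windows, against 9.93% of the windows of all 27025 genes and 20.1% of those of the tested genes. The YY1 motif was found in 17.4% of member windows, against 3.19% and 5.18%, and the NRF1 motif in 11.6%, against 3.05% and 5.93%. The hypoxia response element core was present in 23.2% of member windows, against 21.8% of all genes and 29.4% of the tested genes. E-box matches were in 7.25% (8.09% and 11.7%), and TATAAA likewise in 7.25% (15.7% and 8.77%). Member promoters thus held the ETS, YY1 and NRF1 letters in a larger share than the windows of the tested genes, and the other 3 motifs in a smaller one. These are letter matches in a window and not binding sites.

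The windows of 5 members that the results below turn on are printed 5′ to 3′ along the strand of the gene, with the letters of the 6 motifs in capitals and all else in lower case. Mrps7 (chr11:115603890-115604189, plus strand), Mrps12 (chr7:28741772-28742071, minus strand) and Mrpl49 (chr19:6057706-6058005, minus strand) were lowered by hypoxia and hold the YY1 letters. Mrps12 also holds the ETS letters, and Mrpl49 the hypoxia response element core. Most lowered members lack the YY1 letters: Mrps6 and Mrps10, whose windows are not printed, hold none of the 6 motifs, and Mrps2 holds only the hypoxia response element core. Mrpl47 (chr3:32736706-32737005, minus strand) had the lowest fitted hypoxia change and holds none of the 6 motifs, and Mrpl33 (chr5:31613701-31614000, plus strand), the 1 member with both hypoxic libraries above both normoxic ones, holds the NRF1 and ETS letters.
Mrps7: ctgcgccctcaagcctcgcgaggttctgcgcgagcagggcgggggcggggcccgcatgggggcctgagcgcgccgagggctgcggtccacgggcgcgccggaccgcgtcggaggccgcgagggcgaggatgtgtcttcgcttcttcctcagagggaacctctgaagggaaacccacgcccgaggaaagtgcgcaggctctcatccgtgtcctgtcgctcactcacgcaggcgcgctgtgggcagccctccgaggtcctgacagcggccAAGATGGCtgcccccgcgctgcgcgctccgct
Mrps12: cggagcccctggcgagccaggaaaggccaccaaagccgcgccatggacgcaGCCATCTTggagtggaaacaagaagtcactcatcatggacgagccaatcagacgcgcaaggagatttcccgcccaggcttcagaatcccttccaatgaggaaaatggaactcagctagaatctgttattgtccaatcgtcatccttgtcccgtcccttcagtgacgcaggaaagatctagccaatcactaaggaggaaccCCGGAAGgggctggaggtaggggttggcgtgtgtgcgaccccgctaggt
Mrpl49: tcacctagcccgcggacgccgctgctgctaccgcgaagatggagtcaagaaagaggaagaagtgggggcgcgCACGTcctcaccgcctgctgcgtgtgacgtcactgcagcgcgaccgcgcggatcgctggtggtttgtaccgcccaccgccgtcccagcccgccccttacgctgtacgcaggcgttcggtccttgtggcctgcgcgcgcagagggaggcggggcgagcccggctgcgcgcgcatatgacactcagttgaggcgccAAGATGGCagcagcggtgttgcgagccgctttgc
Mrpl47: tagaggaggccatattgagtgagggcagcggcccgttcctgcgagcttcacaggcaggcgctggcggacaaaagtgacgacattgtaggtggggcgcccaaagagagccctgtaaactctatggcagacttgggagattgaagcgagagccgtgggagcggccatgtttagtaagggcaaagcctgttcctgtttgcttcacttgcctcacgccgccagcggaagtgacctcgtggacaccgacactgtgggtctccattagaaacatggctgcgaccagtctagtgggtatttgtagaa
Mrpl33: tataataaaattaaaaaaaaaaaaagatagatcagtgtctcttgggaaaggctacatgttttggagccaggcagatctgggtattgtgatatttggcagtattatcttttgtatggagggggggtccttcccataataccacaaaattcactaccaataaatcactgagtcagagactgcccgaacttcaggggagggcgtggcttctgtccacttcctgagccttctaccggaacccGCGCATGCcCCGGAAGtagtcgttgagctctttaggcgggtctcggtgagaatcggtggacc
In Mrps7 and Mrpl49 the YY1 letters lie close to the end of the window, past the annotated start. Among the 18 members lowered by hypoxia that had a window, 6 held the YY1 motif (Mrps7, Mrps12, Mrps18a, Mrps27, Mrpl37 and Mrpl49), 7 the ETS motif, 4 the hypoxia response element core and 0 the NRF1 motif. The median fitted hypoxia change was -0.20 (log2) over the 12 members with the YY1 letters and -0.12 over the others, and over all tested genes it was -0.03 with and 0.01 without them. For the other 5 motifs the members with the letters had the median nearer to 0: -0.11 with and -0.13 without for NRF1, -0.12 and -0.14 for ETS, -0.11 and -0.14 for the hypoxia response element core, -0.09 and -0.13 for the E-box and -0.12 and -0.13 for TATAAA. No test was run on these shares.

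All but 1 of the members were well expressed. In every library, 77 of the 78 had at least 100 counts, and leaving out Mrpl36 the counts per member and library ran from 510 to 5806. Together the members took 0.431% of all counts in the control library under normoxic conditions and 0.397% under hypoxic conditions. With IFN-γ they took 0.428% under normoxic and 0.385% under hypoxic conditions. The summed level, scaled by TMM, went from 4270 to 3965 CPM in the controls and from 4315 to 3870 CPM in the IFN-γ libraries. Both hypoxic libraries were below both normoxic libraries in this sum, and so they were in the share of counts. Under normoxic conditions the IFN-γ library was above its control in the scaled sum and below it in the share of counts, and under hypoxic conditions it was below its control in both.

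Levels between members were compared per length, as RPKM (CPM divided by the merged exon length in kilobases), averaged over the 4 libraries. The median member was at 32.9 RPKM, and the quartiles were 16.1 and 53.1. The highest were Mrpl42 at 176, Mrpl34 at 136, Mrpl18 at 133, Mrps21 at 123 and Mrpl33 at 121 RPKM. Lowest was Mrpl36, a small zinc-binding protein of the large subunit, at 0.231 RPKM, with 10, 14, 6 and 7 counts in control normoxia, control hypoxia, IFN-γ normoxia and IFN-γ hypoxia. It was followed by Mrps17 at 2.68, Mrpl47 at 6.39, Mrpl1 at 7.75 and Mrpl48 at 8.08 RPKM. Although the proteins are built into 1 particle, the RPKM of the members other than Mrpl36 thus ran from 2.68 to 176. Both the range and the order depend on the length used. With coding length alone, the members other than Mrpl36 ran from 21.3 (Mrpl46) to 301 RPKM (Mrpl18), and Mrps17 was at 44.6. By that length the 5 highest were Mrpl18, Mrpl34, Mrpl42, Mrps21 and Mrpl51, and the 5 lowest were Mrpl36, Mrpl46, Mrpl47, Mrps31 and Mrpl44. Large-subunit members with a bacterial homologue had a median of 45.7 RPKM, those without one 32.7, small-subunit members with a bacterial homologue 34.7 and those without one 21.6. The genes were short: their merged exons had a median length of 1380.5 bases against 3297.5 over the tested genes with an annotated length, their coding sequence 582 against 1410 bases, and they had a median of 5 exons against 9. Their GC content was close to that of the tested genes, with medians of 50.4% and 50.7%. They lay on 17 chromosomes, 11 of them on chromosome 11 and 8 on chromosome 17.

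Under hypoxic conditions a part of the mitochondrial ribosomal protein transcripts fell, by small amounts, across both subunits. In the additive fit of all 4 libraries (edgeR, oxygen and IFN-γ as terms, Benjamini-Hochberg adjustment over all 13580 tested genes), 21 of 78 members (26.9%) were lowered at an adjusted p under 0.05, where 6.89% of all tested genes were lowered. None of the members was raised at this threshold in edgeR (0 of 78), where 8.42% of all tested genes were. At an unadjusted p under 0.05, 34 members were lowered (12.5% of all tested genes) and 0 raised (14.2%), and DESeq2 also raised 0. The median member changed by -0.13 on the log2 scale (quartiles -0.20 and -0.04), against a median of 0.00 (quartiles -0.11 and 0.14) over all tested genes, and 68 of 78 members (87.2%) had a fitted change below 0, against 48.5% of all tested genes. The 21 lowered members lay between -0.42 and -0.19. Because each condition has 1 library, the only spread in this fit is departure from additivity, with 1 residual degree of freedom per gene. It was pooled and moderated across genes, so the SE of a gene says little of its own departure. Mrpl34 and Mrpl15 both had an SE of 0.064, although their hypoxia changes with and without IFN-γ differed by -0.36 and -0.06. Variation between cultures was not measured by itself. The count of 21 also rests on that fit. It became 3 with DESeq2's Wald test of the same model (1.58% of all genes lowered) and 2 without a filter on low counts (0.755%). When 2 libraries were set against 2, it became 0 in edgeR (0.258%) or 5 in DESeq2 (2.68%).

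**Figure D1:**
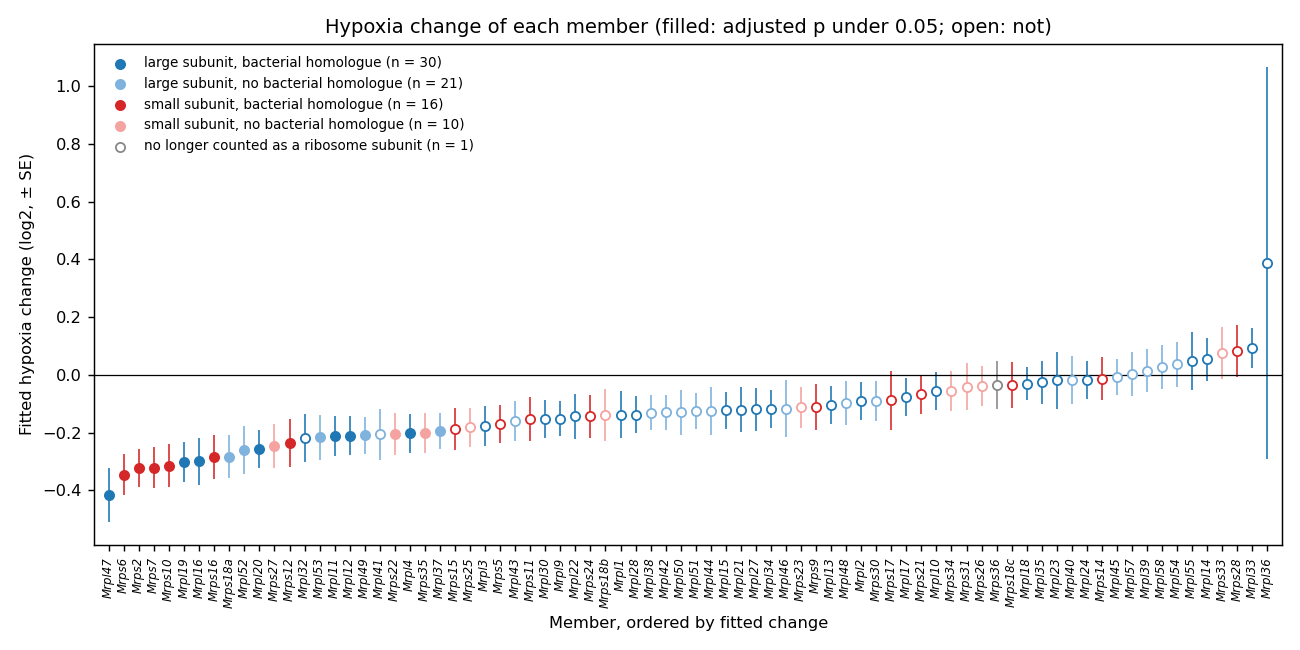
Fitted hypoxia change (log2, y axis) of each of the 78 members, ordered from the lowest to the highest along the x axis, with bars of 1 standard error and colours for the role group. Filled points passed an adjusted p under 0.05; all 21 of these lie between -0.42 and -0.19, and the point with the wide bar at the right is Mrpl36, which had 6 to 14 counts per library.

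The single libraries showed the same direction, but they are the data that the fit used and are no separate evidence. Without IFN-γ the hypoxic library was below the normoxic library for 62 of 78 members (79.5%; 48.0% of all tested genes), and with IFN-γ for 66 (84.6%; 50.0%). In both pairs 55 members were lower under hypoxic conditions, against 31.9% of all tested genes. Both hypoxic libraries were below both normoxic libraries for 51 members (65.4%; 24.4% of all tested genes), all 21 lowered members included, and above them for 1, Mrpl33 (24.1% of all tested genes). The 95% counting interval of the hypoxia change lay below 0 for 42 members without IFN-γ (21.8% of all tested genes) and for 54 with it (23.8%). Such intervals cover counting error only.

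Small-subunit proteins with a bacterial homologue held 6 of the 21 lowered members, out of 16, and their median hypoxia change was -0.16. Mrps7, a protein of the small subunit's head, measured 62.8 CPM in control normoxia and 49.9 in control hypoxia, and 63.8 and 51.4 in the corresponding IFN-γ libraries. The 2 normoxic and the 2 hypoxic values each agreed closely and the hypoxic ones were lower, with a fitted log2 change of -0.32 (SE 0.07, adjusted p = 0.0001). Mrps2, which lies on the back of the subunit, measured 90.0 CPM in control normoxia, 68.0 in control hypoxia, 82.7 in IFN-γ normoxia and 70.0 in IFN-γ hypoxia. Its groups did not overlap either, and the fitted change was -0.32 (SE 0.07, adjusted p = 2.32e-05). Mrps6 read 62.7 and 59.1 CPM in the normoxic libraries without and with IFN-γ, against 50.7 and 45.3 in the hypoxic ones (log2 -0.35, SE 0.07, adjusted p = 2.82e-05). Its exons overlap Slc5a3, a myo-inositol transporter gene on the same strand, over 36.1% of their bases together with the unnamed model Gm49711, so reads of these genes may have been split; Slc5a3 had a hypoxia change of -0.18 that did not pass (adjusted p = 0.065). Mrps10 read 46.8 and 39.9 CPM in the controls under normoxic and hypoxic conditions and 49.0 and 37.2 CPM in the IFN-γ libraries (log2 -0.31). Of its 31-base words, 31.8% also occur in annotated transcripts of other genes. The other lowered proteins of this group were Mrps16 (log2 -0.28), whose loss is known to cause a human respiratory chain disorder, and the decoding-centre protein Mrps12 (log2 -0.24).

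Among small-subunit proteins without a bacterial homologue, 3 of 10 were lowered, with a group median of -0.13. These were Mrps27, a pentatricopeptide repeat protein (log2 -0.25), Mrps22, mutated in human mitochondrial disease (-0.21), and Mrps35 (-0.20). Mrps22 read 53.1 and 56.5 CPM in the normoxic libraries without and with IFN-γ, and 49.7 and 45.3 CPM in the hypoxic ones. Its groups were separate by a small margin, and it passed in 1 of the 8 alternative fits. Mrps25 was just outside the threshold (log2 -0.18, adjusted p = 0.0533).

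Large-subunit proteins with a bacterial homologue were lowered in 7 of 30 cases, with a median of -0.12. Mrpl47, the homologue of bacterial L29 near the exit of the peptide tunnel, had the lowest fitted change of all members. It read 22.1 CPM in control normoxia, 18.7 in control hypoxia, 27.1 in IFN-γ normoxia and 18.1 in IFN-γ hypoxia. Both hypoxic values were nearly equal while the normoxic ones differed, and the fitted change was -0.42 (SE 0.09, adjusted p = 0.00016). Mrpl19 read 65.4 and 57.8 CPM without IFN-γ and 68.5 and 50.9 CPM with it (log2 -0.30, adjusted p = 0.00024), with 39.2% of its exon bases overlapping Gcfc2 on the other strand. Mrpl16 (-0.30) and Mrpl20 (-0.26) followed. Mrpl12, which also binds the mitochondrial RNA polymerase, changed by -0.21 (SE 0.07, adjusted p = 0.0147), and Mrpl11, its neighbour in the factor-binding region, by -0.21 (adjusted p = 0.0189). Mrpl4, which lines the peptide tunnel, was at -0.20. Just outside the threshold lay Mrpl32 (log2 -0.22, adjusted p = 0.056) and Mrpl3 (log2 -0.18, adjusted p = 0.0605).

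Large-subunit proteins without a bacterial homologue were lowered in 5 of 21 cases, again with a median of -0.13. Mrps18a changed most, from 45.0 to 35.8 CPM in the controls and from 45.5 to 38.6 CPM in the IFN-γ libraries (log2 -0.28, SE 0.08, adjusted p = 0.00272). Its relatives in the small subunit, Mrps18b (log2 -0.14, adjusted p = 0.326) and Mrps18c (log2 -0.03, adjusted p = 0.839), did not pass. The others were Mrpl52 (-0.26), Mrpl53 (-0.22), Mrpl49 (-0.21) and Mrpl37 (-0.19). Mrpl53 lies wholly inside the read-through model Gm42688 on the same strand, so its counts cannot be assigned to it alone. Of the members with known further functions, Mrpl45 at the tunnel exit changed by -0.01, Mrpl58, the peptidyl-tRNA hydrolase that frees stalled ribosomes, by 0.03, Mrps30 by -0.09, Mrpl44, which has a ribonuclease fold, by -0.12, and Mrpl41 by -0.21 (adjusted p = 0.0938). None of these 5 passed the test, and neither did Mrps36 at -0.04. Taking the subunits whole, 12 of 51 large-subunit members and 9 of 26 small-subunit members were lowered, with medians of -0.12 and -0.15; whether the subunits differ was not tested.

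**Figure D2:**
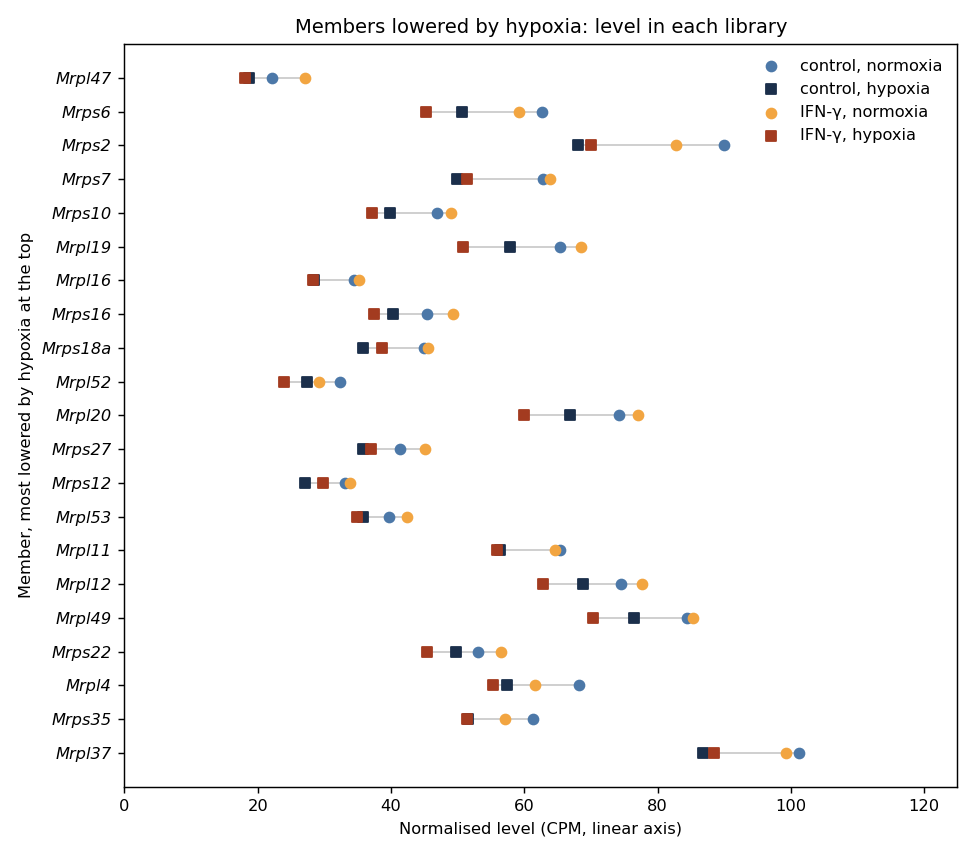
Normalised level (CPM, x axis from 0) of the 21 members lowered by hypoxia, 1 line per member, in each of the 4 libraries (circles normoxia, squares hypoxia). On every line both squares lie to the left of both circles.

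At the other end, the member with the highest well-counted hypoxia change was Mrpl33, at 55.2 and 61.3 CPM without IFN-γ and 56.8 and 58.3 with it. Both hypoxic values were above both normoxic values, and the fitted change of 0.09 (SE 0.07, adjusted p = 0.408) did not pass. Of the 31-base words of Mrpl33, 33.3% also occur in other annotated genes, most often in the overlapping model Gm43809. Mrps28 (0.08), Mrps33 (0.08) and Mrpl14 (0.05) were next, with adjusted p-values of 0.612, 0.656 and 0.705. Mrpl36 had a fitted change of 0.39 with an SE of 0.68, which its counts cannot resolve. Within the members the hypoxia change was weakly related to gene properties. Spearman's rho across the 78 genes was -0.07 with exon length, -0.21 with coding length and -0.08 with GC content. Over the 12064 tested genes with an annotated length it was 0.10, 0.07 and -0.03. These values are a description across genes that share the 4 libraries.

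Sequence shared with other genes bears on the values of 23 members. For 15, at least 20% of the 31-base words of the transcript with the longest coding sequence also occur in other annotated genes. The most frequent partners are mostly unnamed models that may be processed copies. For Mrpl23 the share is 67.6%, and its most frequent partner is Mrpl23-ps1. For 8, at least 20% of the exon bases lie under a gene on the other strand, among them Mrps25 with Nr2c2 (75.6%) and Mrps34 with Mapk8ip3 (62.7%). For 5, exons overlap a gene on the same strand, and some members fall under more than 1 of these. The strand setting used in counting is not given in the sources used here. With these set aside, 16 of the remaining 55 members were lowered by hypoxia (6.89% of all tested genes), and their median change was -0.12. Of the 55, 37 had both hypoxic libraries below both normoxic ones (24.4% of all tested genes).

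The hypoxia change was then compared between the pairs without and with IFN-γ, which share no library. Over the 77 members with at least 100 counts in every library, the changes correlated across genes with Pearson's r of 0.409 and Spearman's rho of 0.416, given as a description. The median change over all 78 members was -0.11 without and -0.15 with IFN-γ, against 0.01 and 0.00 over all tested genes. The difference between both changes (with minus without IFN-γ) had a median of -0.04 over the 77 members, and 45 were below 0, against a median of -0.02 and 55.8% below 0 over the 10443 genes with as many counts. No member lay beyond the central 95% of those genes (-0.36 to 0.40) on the lower side (0 of 77; 2.51% of genes) or on the upper side (0 of 77; 2.51%). Mrpl34 was at the lower edge, with a change of 0.06 (95% counting interval -0.01 to 0.13) without IFN-γ and -0.30 (-0.38 to -0.22) with it. Mrpl47 changed by -0.24 (-0.39 to -0.09) and -0.59 (-0.73 to -0.44). Mrps33 was farthest on the other side, at -0.08 without and 0.22 with IFN-γ. Without a replicate these differences could not be tested.

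**Figure D3:**
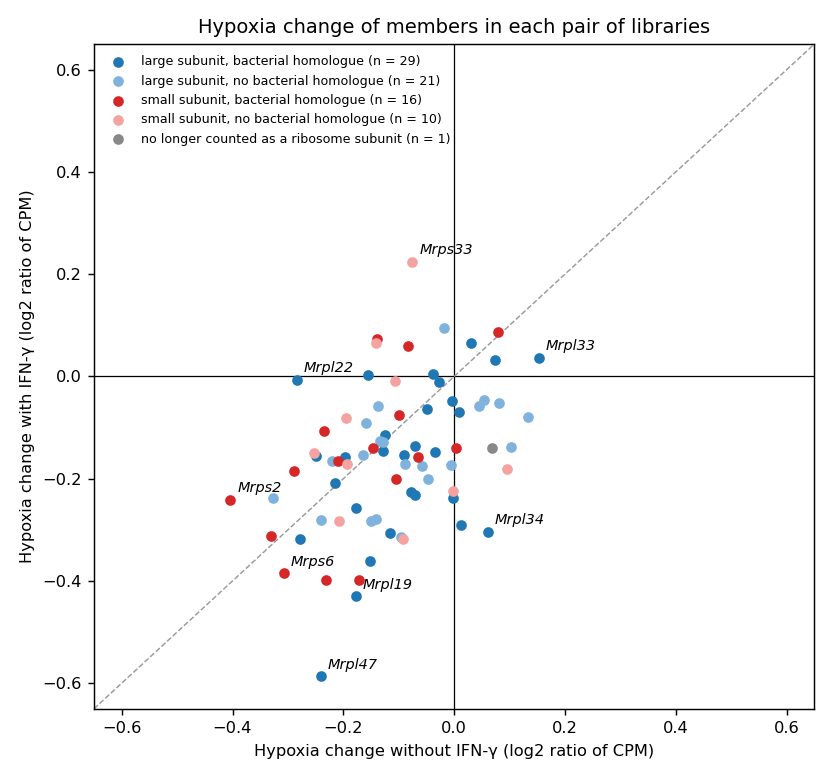
Hypoxia change (log2 ratio of CPM) without IFN-γ (x axis) and with IFN-γ (y axis) of the 77 members with at least 100 counts in every library, coloured by role group, with equal changes on the dashed line. Most points lie in the lower left part, below 0 on both axes, and Mrpl47 and Mrpl34 lie farthest below the dashed line.

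IFN-γ changed few members. In the same fit 1 member was raised (4.80% of all tested genes) and 1 lowered (1.13%) at an adjusted p under 0.05, and 3 (8.18%) and 3 (5.87%) at an unadjusted p under 0.05. The median fitted IFN-γ change was -0.02 over the members and -0.01 over all tested genes, and 44 of 78 members were below 0. Both IFN-γ libraries were below both control libraries for 9 members (15.1% of all tested genes), namely Mrpl14, Mrpl23, Mrpl34, Mrpl36, Mrpl39, Mrps14, Mrps17, Mrps28 and Mrps31. They were above for 5 (15.3%), namely Mrpl13, Mrpl18, Mrpl24, Mrpl55 and Mrps34. These shares are below those of all tested genes. The median of the single-pair IFN-γ changes was 0.02 under normoxic and -0.05 under hypoxic conditions.

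Mrps34 (chr17:24895116-24897502, plus strand, build GRCm38), a small-subunit protein without a bacterial homologue that is mutated in human mitochondrial disease, was the member raised by IFN-γ. It read 51.6 and 47.9 CPM in the control libraries under normoxic and hypoxic conditions and 62.3 and 61.9 CPM in the IFN-γ libraries. The groups did not overlap, and the fitted change was 0.32 (SE 0.07, adjusted p = 0.00016). Mapk8ip3, a JNK scaffold gene that lies under 62.7% of its exon bases on the other strand, had an IFN-γ change of -0.02 and a hypoxia change of 0.28 (adjusted p = 6.85e-05). Its 4 values, 111 and 123 CPM in the controls and 99.8 and 133 CPM with IFN-γ, were higher in the hypoxic library of each pair. The Mrps34 call was kept in 4 of 8 alternative fits, with adjusted p-values from 0.000227 to 0.262.

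Mrpl34 (chr8:71464959-71465747, plus strand), a short large-subunit protein, was the member lowered by IFN-γ. It measured 87.2 CPM in control normoxia, 90.9 in control hypoxia, 83.9 in IFN-γ normoxia and 67.9 in IFN-γ hypoxia. The last library stands apart from the other 3, and the fitted change of -0.24 (SE 0.06, adjusted p = 0.00601) rests on it: the single-pair IFN-γ change was -0.06 (95% counting interval -0.13 to 0.02) under normoxic and -0.42 (-0.50 to -0.34) under hypoxic conditions. The call was kept in 2 of 8 alternative fits. Of the members that did not pass, Mrpl13 (0.19, adjusted p = 0.0795) and Mrpl32 (0.18) had the next highest fitted IFN-γ changes, and Mrpl52 (-0.17), Mrps14 (-0.15) and Mrpl14 (-0.14) the next lowest after the thinly counted Mrpl36 (-0.86, SE 0.69).

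**Figure D4:**
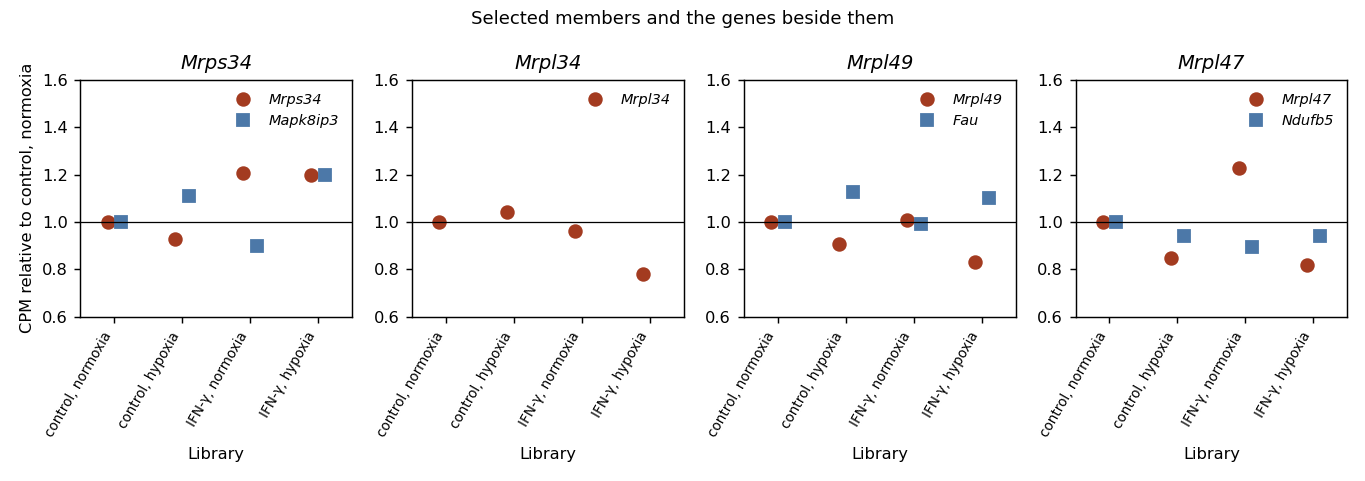
CPM relative to the control library under normoxic conditions (y axis, which does not start at 0) in the 4 libraries (x axis) for 4 members (circles) and, where one is drawn, an overlapping or adjacent gene (squares). Mrps34 was high in both IFN-γ libraries, Mrpl34 was low in IFN-γ hypoxia, and Mrpl49 was low where Fau was high.

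Many members share a start region with another gene. A protein-coding neighbour that starts within 1000 bases and runs in the opposite direction was annotated for 33 of 78 members (42.3%), against 16.7% of 12060 tested protein-coding genes; this property was examined after the expression values had been seen. Mrps11 and Mrpl46 form such a pair with each other, and several neighbours also serve mitochondria, such as Twnk, the mitochondrial DNA helicase, beside Mrpl43, and Sars2, the mitochondrial seryl-tRNA synthetase, beside Mrps12. Of the 33 members, 6 were lowered by hypoxia, with a median change of -0.12, where 26.9% of all members and 6.89% of all tested genes were lowered. Of 31 neighbours that are no members, 29 were tested, with a median change of -0.04. Among these 29, hypoxia raised 4 (8.42% of all tested genes) and lowered 0 (6.89%). Sars2, whose start lies 172 bases from that of Mrps12, had a change of -0.23 (adjusted p = 0.0546) beside -0.24 for Mrps12. Twnk had -0.14 beside -0.16 for Mrpl43. Fau, which encodes a fusion of a ubiquitin-like protein with a protein of the cytoplasmic ribosome, starts 59 bases from Mrpl49 and went the other way. It read 454 and 451 CPM in the normoxic libraries and 511 and 500 CPM in the hypoxic ones (log2 0.16, adjusted p = 0.0159), whereas Mrpl49 read 84.4 and 85.3 CPM in the normoxic and 76.5 and 70.3 CPM in the hypoxic libraries (log2 -0.21, adjusted p = 0.0124). Ndufb5, a complex I subunit whose gene model overlaps that of Mrpl47 at its start, changed by -0.01 (adjusted p = 0.969). The remaining neighbours that were raised were Rab6a beside Mrpl48 (0.31), Wdfy1 beside Mrpl44 (0.30) and Apba3 beside Mrpl54 (0.18).

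Genes that work with the mitochondrial ribosome were then described from fixed lists, whose counts are read against the 6.89% of all tested genes lowered by hypoxia. Its 5 proteins with other symbols had a median hypoxia change of -0.14, with 1 lowered, the pentatricopeptide repeat protein Ptcd3 (-0.18, adjusted p = 0.0214). Chchd1 (-0.19), Aurkaip1 (-0.14) and Gadd45gip1 (-0.07) did not pass. Dap3, the GTP-binding protein of the small subunit, read 131 and 134 CPM in the normoxic and 151 and 143 CPM in the hypoxic libraries, above them in both pairs, with a change of 0.15 that did not pass (adjusted p = 0.0626).

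Of 29 tested genes for assembly of the mitochondrial ribosome and modification of its RNA, 7 (24.1%) were lowered by hypoxia, with a median of -0.12. Mrm3, a methyltransferase for the large ribosomal RNA, was lowest at -0.37 (adjusted p = 0.00123), followed by the matrix protein C1qbp (-0.30, adjusted p = 4.24e-06), Rcc1l (-0.29), Trub2 (-0.25), the GTPase Noa1 (-0.24), Fastkd2 (-0.22) and the GTPase Mtg2 (-0.20). The translation factors had 2 of 17 (11.8%) lowered, with a median of -0.12: the membrane insertase Oxa1l (-0.23) and the elongation factor Tsfm (-0.20). Of 22 genes for mitochondrial aminoacyl-tRNA synthesis 2 (9.09%, close to the share of all tested genes) were lowered, Yars2 (-0.32) and Gatc (-0.27), with a median of -0.05. Transcription and RNA handling had 3 of 20 lowered, with a median of -0.11: Polg2, the accessory subunit of the DNA polymerase (-0.46), Elac2, which trims tRNA ends (-0.33), and Lrpprc, which stabilises mitochondrial mRNA (-0.16). IFN-γ raised 1 of the 22 genes for aminoacyl-tRNA synthesis and 1 of the 20 for transcription and RNA handling, beside 4.80% of all tested genes. These were Kars, which makes both the cytoplasmic and the mitochondrial lysyl-tRNA synthetase (0.36, adjusted p = 9.26e-12), and Pnpt1, the mitochondrial polynucleotide phosphorylase (0.28, adjusted p = 0.00021).

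Mitochondrial proteases and chaperones went both ways under hypoxic conditions. Lonp1, the main protease of the matrix, rose from 280 to 478 CPM in the controls and from 271 to 445 CPM in the IFN-γ libraries (log2 0.74, SE 0.05, adjusted p = 7.42e-43). By contrast 6 of the 14 were lowered, with the folding chaperones Hspd1 (-0.16) and Hspe1 (-0.16), the proteases Htra2 (-0.24) and Clpp (-0.20), Phb2 (-0.21) and Trap1 (-0.18). Lonp1 was the 1 gene raised by hypoxia among the 122 tested genes of the lists for the mitochondrial gene system (5 at an unadjusted p under 0.05).

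The products of mitochondrial DNA itself had a median hypoxia change of -0.16, with 6 of 15 lowered: COX3 (-0.29), CYTB (-0.25), ND2 (-0.21), ND1 (-0.19), ND6 (-0.18) and ND4 (-0.16). CYTB read 2465 and 2212 CPM without IFN-γ in normoxia and hypoxia, and 2175 and 1713 CPM with it, so that IFN-γ lowered it too (-0.28, adjusted p = 4.13e-08). IFN-γ also lowered ND6 (-0.27), ND5 (-0.19) and ND2 (-0.17). In all, 4 of the 15 were lowered by IFN-γ (1.13% of all tested genes) and 1 raised (4.80%). The median of the single-pair hypoxia changes of these 15 genes was -0.03 without and -0.26 with IFN-γ. Both RNAs of the mitochondrial ribosome had fitted hypoxia changes above 0. The small ribosomal RNA mt-Rnr1 read 234 and 267 CPM in the controls and 298 and 318 CPM with IFN-γ, in both cases higher in the hypoxic library, with a hypoxia change of 0.14 (adjusted p = 0.0569) that did not pass and an IFN-γ change of 0.30 (adjusted p = 9.17e-07) that did. The large one, mt-Rnr2, was at 0.10 (adjusted p = 0.259) and 0.07 (adjusted p = 0.683). These libraries were made from poly-A selected RNA. The counts of all these mitochondrial RNAs, ND6 and the ribosomal RNAs included, thus cover only what that selection kept.

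Cytoplasmic ribosomal proteins had a fitted hypoxia change nearer to 0 at the median. Of 83 tested, 10 were lowered by hypoxia, with a median of -0.07 beside -0.13 for the mitochondrial members. That is 12.0% lowered, beside 26.9% of the mitochondrial members and 6.89% of all tested genes. Fitted changes below 0 were as frequent in both sets, at 73 of 83 cytoplasmic (88.0%) and 68 of 78 mitochondrial genes (87.2%), against 48.5% of all tested genes. Both hypoxic libraries were below both normoxic libraries for 43 cytoplasmic genes (51.8%, against 24.4% of all tested genes). The set was taken by Rpl and Rps symbols alone, which also takes in the Rpl7-like gene Rpl7l1. The most lowered of the set were Rpl7l1 (-0.24), Rpl38 (-0.23), Rplp1 (-0.21), Rplp2 (-0.18) and Rpl29 (-0.18). Whether the 2 sets of ribosomal proteins differ was not tested. IFN-γ lowered 3 of the 83 (1.13% of all tested genes), Rpl38 (-0.30), Rps27a (-0.22) and Rpl41 (-0.17), and raised 0 (4.80%).

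**Figure D5:**
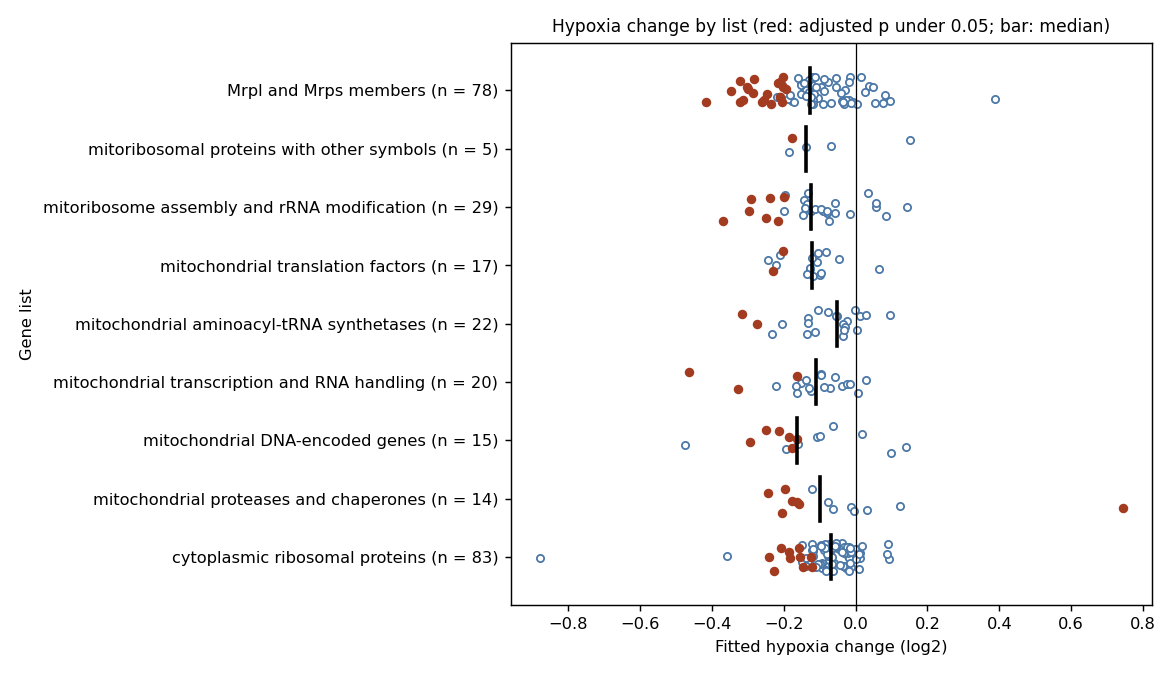
Fitted hypoxia change (log2, x axis) of each tested gene by list (y axis, with the number tested), red where the adjusted p was under 0.05, with a bar at the median; points are spread within a list only to separate them. The medians of all 9 lists lie below 0, between -0.16 and -0.05, and the red point at 0.74 is Lonp1.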

How the data were processed

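RNA-seq was performed on MC38 cells, with 1 library for each of 4 conditions. Per the labels, poly-A RNA was selected, libraries were strand-specific and paired ends of 100 bp were read. Per the study's methods reads were aligned with HISAT2, and the submitters' processing notes name featureCounts and the build mm10. The authors deposited whole-number read counts per gene, listed by NCBI gene ID, neither normalised nor filtered. The annotation, the strand setting and the treatment of reads that match several genes are not given in the sources used here.

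The counts were tested with edgeR 4.0.16 (R 4.3.3): TMM, the default filter at a minimum of 10 counts (13580 genes kept, all 78 members among them), an additive quasi-likelihood fit of oxygen and IFN-γ, and Benjamini-Hochberg adjustment at 0.05. Scripts were tested on simulated data. For each pair of libraries, log2 CPM ratios (TMM, 0.5 counts added) were given 95% Clopper-Pearson intervals. The floor of 3 counts corresponds to 0.0869 to 0.0875 CPM. Coordinates, exon lengths, overlaps and shared 31-base words came from GENCODE M21 (GRCm38, the sequence of mm10), and promoters and names from RefSeq GRCm38.p6, which matched 25275 gene IDs. Members and lists were chosen with earlier results of these data known. Named members were those past the adjusted p, the 5 highest and 5 lowest in each fitted change and in level, a fixed set of known roles, and genes of the other lists past the adjusted p. The alternatives were DESeq2 1.42.0, other scalings, filters, thresholds and models.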

Additional observations from a re-analysis of the deposited data

How the results depend on the processing

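The median member change kept its direction in every alternative run for it, for hypoxia between -0.15 and -0.11, while the calls depended on the model. The number of members lowered by hypoxia was 21 in the main fit, where 6.89% of all tested genes were lowered. It was 19 to 21 with DESeq2's size factors (5.91% of all genes lowered) or total counts (6.27%). The same range held with at least 10 counts in every library (6.38%) or edgeR's earlier dispersions (6.83%). The number was 3 with DESeq2's Wald test (1.58%) and 2 without a filter (0.755%). With 2 libraries against 2 it was 0 in edgeR (0.258%) and 5 in DESeq2 (2.68%). At an unadjusted p under 0.05 in edgeR it was 34 (12.5%). At an adjusted p under 0.01 it was 10, for which no share of all genes is given here. Of 8 alternative fits, Mrps6 and Mrps7 passed in 7, Mrps2 in 6, Mrpl19 and Mrps10 in 5, 14 others in 4, Mrpl53 in 2 and Mrps22 in 1. No alternative raised a member by hypoxia (0 throughout). The 1 member raised by IFN-γ became 0 with the Wald test, without a filter and in both comparisons of 2 with 2, and 3 unadjusted. The 1 lowered by IFN-γ became 0 in the same fits and also with DESeq2's size factors or at least 10 counts, and 3 unadjusted. Over the 122 genes of the other lists, the 27 lowered by hypoxia became 5 (Wald), 2 (no filter), 0 and 7 (2 against 2 in edgeR and DESeq2), 16 (adjusted p under 0.01) and 44 (unadjusted), and the 1 raised became 5 unadjusted (14.2% of all tested genes). The shares of all genes lowered by hypoxia are those given above for the members. The 3 raised by IFN-γ became 0 and 1 with 2 against 2, and the 4 lowered became 2 (Wald), 0 (no filter), 0 and 0 (2 against 2) and 9 (unadjusted). In the part of the window next to the start, the share of member promoters was lower for all 6 motifs. It went from 7.25% to 1.45% for TATAAA, from 7.25% to 2.90% for the E-box and from 23.2% to 15.9% for the hypoxia response element core. For YY1 it went from 17.4% to 13.0%, for NRF1 from 11.6% to 8.70% and for ETS from 37.7% to 33.3%. The shorter window was not searched in other genes. The signs of 4 near-zero IFN-γ changes reversed: Mrpl16 (-0.00706) and Mrps16 (-0.00506) with total counts, Mrpl37 with DESeq2's size factors (0.000821), the Wald test (0.0011), no filter (0.00854) and at least 10 counts (0.00561), and Mrpl48 with no filter (0.00595) and at least 10 counts (0.00301). The cause of these changes was not tested. Setting aside members with overlapping or shared sequence was chosen after seeing the data. No paired analysis was possible because the conditions share only replicate number 1, so no replicate block can be fitted beside the additive fit, which already compares the oxygen levels within each IFN-γ state. Leaving out a library leaves no residual degree of freedom in the additive fit.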
